A study of Psychotria gabriellae and Psychotria semperflorens with 6 samples.

Results

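Of 60899 contigs counted in the leaves of 2 Psychotria species, 98 (0.161%) met a rule for being raised at Riviere Blanche. They were higher in both plants taken there than in every plant taken at Monts Koghi, with a mean difference of at least 4-fold. These contigs were chosen from their values. Each count was scaled to the total of its library, giving counts at a common library total (CPM), and L was taken as log2(CPM + 0.5). A contig was kept where the lower L of the 2 Riviere Blanche plants exceeded the highest L of the 4 Monts Koghi plants and the difference of the mean L was at least 2, a 4-fold difference. The difference between the sites is therefore the reason for their choice and is described here without a test.

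Leaves came from 3 wild plants of Psychotria gabriellae, which the labels call a nickel hyperaccumulator, and 3 of Psychotria semperflorens, which they call a non-accumulator. All plants grew in rain forest on serpentine soil in New Caledonia, and each library held polyA RNA of 1 individual. At Monts Koghi, P. gabriellae plant 1 and P. semperflorens plant 3 were collected on October 30, and P. gabriellae plant 3 and P. semperflorens plant 1 on November 4. At Riviere Blanche, plant 2 of each species was collected on the following March 10. Riviere Blanche is thus represented by 1 plant per species and by 1 day, so the site, the season and the individual plants cannot be told apart. The libraries held 29905486 to 62064930 reads, the fewest in P. gabriellae plant 3, where 3 reads correspond to 0.1 CPM. Reads of both species were counted on the assembled transcripts of P. gabriellae, and empty contigs numbered 2 in P. gabriellae plant 1 and 2062 to 3425 elsewhere.

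A hyperaccumulator takes up a metal from the soil and stores it in its leaves at concentrations that would harm most plants, and related species on the same soil keep the metal out. Leaves of wild plants also differ in light, water, age, time of day and attack by other organisms, and all of these are known to change leaf transcripts. A contig is an assembled stretch of transcript, so that 1 gene can be spread over several contigs. The files give the contigs by identifier only, and their gene names, functions and sequences were not analysed here. No leaf marker could be checked for the same reason.

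The 98 contigs were mostly well detected at both sites and, by the rule, higher at Riviere Blanche. Their median level at Riviere Blanche was 19.9 CPM for P. gabriellae and 19.2 CPM for P. semperflorens. At Monts Koghi the median was 3.44 CPM in P. gabriellae plant 1, 4.18 in P. gabriellae plant 3, 2.80 in P. semperflorens plant 1 and 2.71 in P. semperflorens plant 3. The median over all contigs moved little by comparison, lying at 1.13 and 1.08 CPM in the Riviere Blanche plants and at 1.09 to 1.57 CPM in the Monts Koghi plants. In bulk leaf RNA a change in the share of a cell type and a change in RNA per cell cannot be told apart.

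Together the 98 contigs took 0.617% of the reads of P. gabriellae plant 2 and 0.514% of those of P. semperflorens plant 2. In the Monts Koghi libraries they took 0.0931% to 0.147%. The 5 contigs with the most reads at Riviere Blanche held 36.2% of these reads in the P. gabriellae plant from there and 43.6% in the other. Among the 1000 contigs with the most reads, 11 of the 98 appeared in the P. gabriellae plant of Riviere Blanche and 7 in its P. semperflorens plant. Each Monts Koghi plant had 1 or 2.

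In 73 of the 98, every one of the 6 libraries held at least 10 reads (74.5%, against 64.7% of all contigs). None was at 3 reads or fewer in every Monts Koghi plant. P. gabriellae plant 1 held reads of all but 2 contigs of the whole table, and none of the 98 was under 10 reads in it. The count therefore says little about contigs newly detected at Riviere Blanche. Within P. semperflorens, Pgab_v2_contig_44082 had 0 reads in both Monts Koghi plants and 296 at Riviere Blanche, and Pgab_v2_contig_47907 had 0 and 45. A Monts Koghi library without a read occurred in 12 contigs, 5 of them in P. gabriellae plant 3, 5 in P. semperflorens plant 1 and 5 in P. semperflorens plant 3. No contig was without a read in P. gabriellae plant 1, which had almost no empty contigs in the whole table. The fewest reads of any of the 98 in a Riviere Blanche library were 37. The lower of the 2 Riviere Blanche plants was at 10 CPM or more in 62 contigs (63.3%, against 18.6% of all contigs). It was between 1 and 10 CPM in 34 and under 1 CPM in 2. The rule favours abundance there, since a contig scarce in every plant cannot reach a difference of 2 in L.

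The mean L differed between the sites by 2.01 to 4.69, with a median of 2.34, equal to 5.06-fold. The difference was below 2.5 in 57 contigs and reached 3 in 15 and 4 in 2. Over all contigs the median difference was -0.13. Applying the same rule in the other direction gave 415 contigs lower at Riviere Blanche. The balance depended on scaling: with the size factors of DESeq2 in place of the library totals, 136 contigs were higher and 330 lower.

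**Figure D1:**
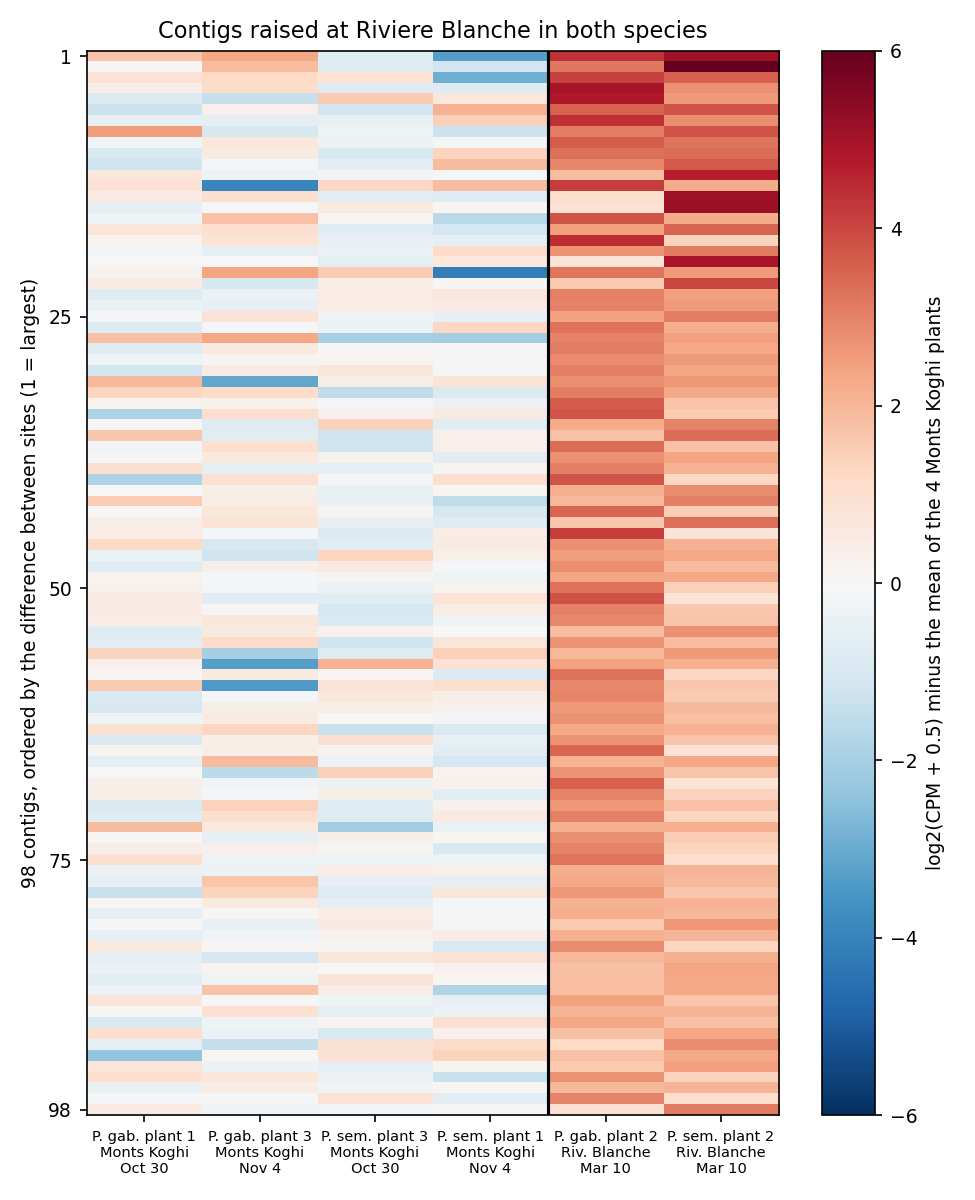
Level of the 98 contigs in each plant, as log2(CPM + 0.5) minus the mean of the 4 Monts Koghi plants, 1 row per contig, ordered by the difference between the sites, with red above and blue below that mean and the colour scale ending at 6 on either side. The right 2 columns are the Riviere Blanche plants, which are above all others in every row by the choice of the contigs; deep blue cells among the left 4 columns mark contigs nearly absent from a single Monts Koghi plant.

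The 6 contigs with the largest difference between the sites did not share one pattern. Pgab_v2_contig_17171 was at 105 and 177 CPM in plant 2 of P. gabriellae and of P. semperflorens, and at Monts Koghi at 16.6 and 25.6 CPM in P. gabriellae plants 1 and 3 and 0.0435 and 2.72 CPM in P. semperflorens plants 1 and 3. It had the largest difference of the set, 4.69, and was lowest in P. semperflorens plant 1, where 2 reads were counted. Summed over the plants of a site, the CPM in P. semperflorens was 119 times as high at Riviere Blanche (exact 95% interval 101 to 141, which covers counting error only), and in P. gabriellae it was 5.30 times as high (5.03 to 5.60).

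Pgab_v2_contig_24745, with a difference of 4.59, was at 14.4 and 109 CPM in plant 2 of P. gabriellae and of P. semperflorens. Its Monts Koghi levels were 1.23 and 5.45 CPM in P. gabriellae plants 1 and 3 and 0.261 and 0.503 CPM in P. semperflorens plants 1 and 3. The P. semperflorens plant of Riviere Blanche thus stood far above all others, while P. gabriellae plant 2 stood 2.5-fold above the highest Monts Koghi plant on the scale of CPM + 0.5. Pgab_v2_contig_1208 was at 285 and 203 CPM in plant 2 of P. gabriellae and of P. semperflorens, and at Monts Koghi at 30.3 and 38.5 CPM in P. gabriellae plants 1 and 3 and 1.70 and 29.4 CPM in P. semperflorens plants 1 and 3. Here 3 of the Monts Koghi plants were close together, P. semperflorens plant 1 was well below them, and both Riviere Blanche plants were high. This contig combined many reads with a wide separation, since its lower Riviere Blanche plant was 5.22-fold above its highest Monts Koghi plant.

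Pgab_v2_contig_44082 was at 25.9 and 5.09 CPM in plant 2 of P. gabriellae and of P. semperflorens. At Monts Koghi it was at 0.625 and 1.34 CPM in P. gabriellae plants 1 and 3, and neither P. semperflorens plant held a read. Against a bound of 3 reads over those 2 libraries, the CPM in P. semperflorens was at least 169-fold higher at Riviere Blanche, and in P. gabriellae it was 29.7 times as high (23.5 to 37.9). Pgab_v2_contig_46909 was at 41.5 and 8.20 CPM in plant 2 of P. gabriellae and of P. semperflorens, and at Monts Koghi at 0.339 and 0.0669 CPM in P. gabriellae plants 1 and 3 and 1.83 and 3.88 CPM in P. semperflorens plants 1 and 3. The species thus differed in order between the sites: P. gabriellae was the lower one at Monts Koghi and the higher one at Riviere Blanche. Pgab_v2_contig_43916 was at 37.7 and 44.4 CPM in plant 2 of P. gabriellae and of P. semperflorens, and at Monts Koghi at 0.839 and 3.61 CPM in P. gabriellae plants 1 and 3 and 13.3 and 1.04 CPM in P. semperflorens plants 1 and 3. Both Riviere Blanche plants were alike, and within Monts Koghi the 2 plants of November 4 were above those of October 30.

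The 7 contigs with at least 100 CPM in both Riviere Blanche plants had a median difference between the sites of 2.67, against 2.34 over the 98. Contig lengths were not used here, so the CPM of different contigs ranks their reads and not their transcripts. Pgab_v2_contig_11097 was at 888 and 1259 CPM in plant 2 of P. gabriellae and of P. semperflorens, and at Monts Koghi at 50.6 and 277 CPM in P. gabriellae plants 1 and 3 and 665 and 478 CPM in P. semperflorens plants 1 and 3. Its difference between the sites was 2.03, near the threshold, and P. gabriellae plant 1 alone was far below the other Monts Koghi plants. It was the 1 contig of the 98 among the 100 with the most reads, in each Riviere Blanche library.

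Pgab_v2_contig_25345 was at 522 and 114 CPM in plant 2 of P. gabriellae and of P. semperflorens, and at Monts Koghi at 10.2 and 80.6 CPM in P. gabriellae plants 1 and 3 and 55.8 and 45.3 CPM in P. semperflorens plants 1 and 3. The P. semperflorens plants were within a narrow range, and most of the difference, 2.67, came from P. gabriellae plant 2. Pgab_v2_contig_6312 was at 374 and 191 CPM in plant 2 of P. gabriellae and of P. semperflorens, and at Monts Koghi at 31.4 and 73.5 CPM in P. gabriellae plants 1 and 3 and 42.1 and 112 CPM in P. semperflorens plants 1 and 3. Its groups were 1.70-fold apart at their nearest plants.

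Pgab_v2_contig_1173 and Pgab_v2_contig_1397 were uneven at Monts Koghi. Pgab_v2_contig_1173 was at 221 and 351 CPM in plant 2 of P. gabriellae and of P. semperflorens, and at Monts Koghi at 147 and 13.1 CPM in P. gabriellae plants 1 and 3 and 10.3 and 20.9 CPM in P. semperflorens plants 1 and 3. Pgab_v2_contig_1397 was at 227 and 328 CPM in plant 2 of P. gabriellae and of P. semperflorens, and at Monts Koghi at 144 and 13.7 CPM in P. gabriellae plants 1 and 3 and 153 and 32.5 CPM in P. semperflorens plants 1 and 3. For the first, P. gabriellae plant 1 was close to the Riviere Blanche plants and the other 3 were low; for the second, plant 1 of each species was high and plant 3 of each was low, although the plants numbered alike were taken on different days.

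**Figure D2:**
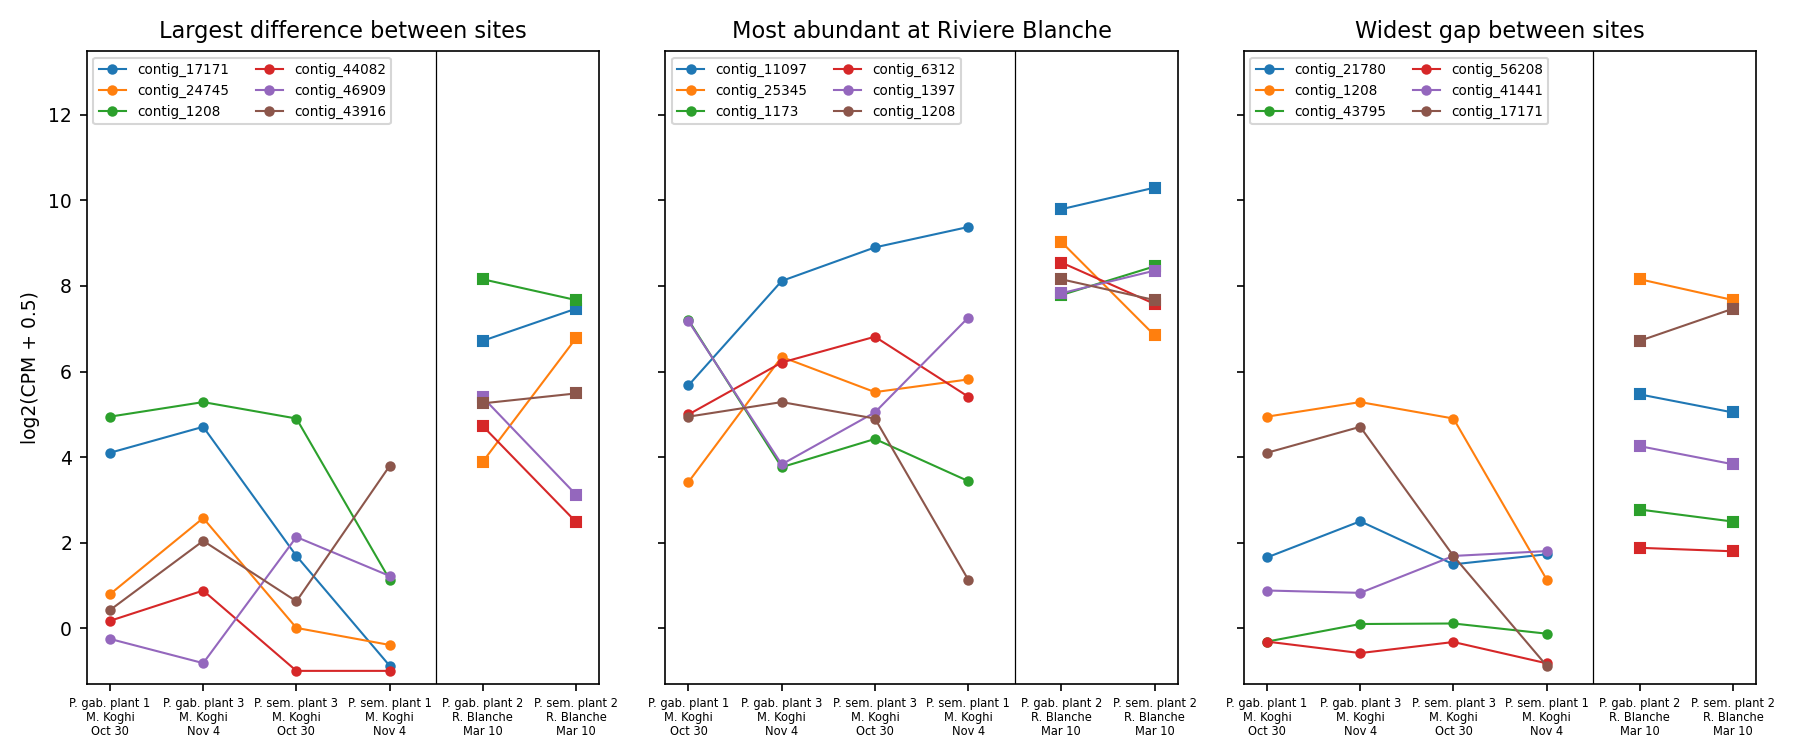
Level of named contigs in each plant, as log2(CPM + 0.5), with circles for the Monts Koghi plants and squares for the Riviere Blanche plants; lines only join the points of 1 contig within a site. The left panel holds the 6 contigs with the largest difference between the sites, the middle panel the 6 with the most reads at Riviere Blanche and the right panel the 6 with the widest gap between the nearest plants of the sites, with the Monts Koghi values of Pgab_v2_contig_21780 and Pgab_v2_contig_43795 close together and those of Pgab_v2_contig_17171 and Pgab_v2_contig_1208 spread.

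The gap between the nearest plants of the sites was often narrow. On the scale of CPM + 0.5, the lower Riviere Blanche plant exceeded the highest Monts Koghi plant by a median of 1.92-fold, with a range of 1.01-fold to 5.83-fold. The gap reached 2-fold in 45 contigs and 4-fold in 6, and it was below 1.2-fold in 16. Both Riviere Blanche plants lay above all Monts Koghi plants, by any amount, in 2682 contigs (4.40% of all). The contigs with the widest gaps, chosen after their values were seen, included some of the steadiest.

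Pgab_v2_contig_21780 was at 43.6 and 32.4 CPM in plant 2 of P. gabriellae and of P. semperflorens, and at Monts Koghi at 2.64 and 5.15 CPM in P. gabriellae plants 1 and 3 and 2.81 and 2.31 CPM in P. semperflorens plants 1 and 3. All plants of a site were close, and the sites differed by 3.39 within P. gabriellae and by 3.43 within P. semperflorens. Pgab_v2_contig_43795 showed the same shape at a lower level, with 6.33 and 5.12 CPM in plant 2 of P. gabriellae and of P. semperflorens and 0.304 to 0.578 CPM at Monts Koghi. Pgab_v2_contig_56208 was lower again, with 3.17 and 2.97 CPM at Riviere Blanche and 0.0653 to 0.304 CPM at Monts Koghi. Pgab_v2_contig_41441 was at 18.6 and 13.7 CPM at Riviere Blanche and at 1.27 to 2.98 CPM at Monts Koghi.

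The spread of the Monts Koghi plants is partly set by the rule, since a single very low plant lowers their mean L and helps a contig to pass. In the 98 contigs the 4 plants spanned a median of 1.66 in L, against 1.28 for the 18523 contigs with a Monts Koghi mean of 1.19 to 9.26 CPM, the middle range of the 98. They lay within 2-fold of each other in 17 contigs and spanned more than 8-fold in 17 others. In the wide group the lowest plant was P. semperflorens plant 1 in 8 contigs, P. gabriellae plant 3 in 5, P. gabriellae plant 1 in 3 and P. semperflorens plant 3 in 1. The highest Monts Koghi plant was P. gabriellae plant 3 in 36 of the 98 and P. gabriellae plant 1 in 24. It was P. semperflorens plant 1 in 20 and P. semperflorens plant 3 in 18. The same counts were not made over all contigs. The median CPM over all contigs was also highest in P. gabriellae plant 3, at 1.57. It was 1.29 in P. gabriellae plant 1, 1.09 in P. semperflorens plant 1 and 1.47 in P. semperflorens plant 3.

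Some contigs were nearly absent from 1 Monts Koghi plant only, and these were named after their values were seen. Pgab_v2_contig_15708 was at 0.0669 CPM in P. gabriellae plant 3, against 15.9 to 31.0 CPM in the other Monts Koghi plants and 156 and 41.0 CPM in plant 2 of P. gabriellae and of P. semperflorens. Pgab_v2_contig_27621 was at 0.0334 CPM in P. gabriellae plant 3, against 5.93 to 21.7 CPM in the other Monts Koghi plants and 27.2 and 21.9 CPM at Riviere Blanche. Pgab_v2_contig_11098 was at 0.0435 CPM in P. semperflorens plant 1, against 10.6 to 48.5 CPM in the other Monts Koghi plants and 86.9 and 55.0 CPM at Riviere Blanche. In Pgab_v2_contig_27621 and Pgab_v2_contig_11098 the nearest plants of the sites were 1.01-fold and 1.13-fold apart.

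The size of the difference was then set side by side for the species, each within its own plants. In P. gabriellae, plant 2 exceeded the mean L of plants 1 and 3 by a median of 2.62, with a range of 0.33 to 5.93. In P. semperflorens the median was 2.20 and the range 0.62 to 7.07. Over all contigs these medians were -0.15 and -0.11. The difference was larger in P. gabriellae in 61 contigs and larger in P. semperflorens in 37. The median of the P. gabriellae difference minus the P. semperflorens difference was 0.46 over the 98 and -0.03 over all contigs. As fitted by edgeR, its median over the 98 was 0.48, but -0.33 without P. semperflorens plant 1. Without another Monts Koghi plant it was 0.46 to 0.63. The differences of the species were within 1 of each other in 38 contigs and more than 2 apart in 29, of which 15 were larger in P. gabriellae and 14 in P. semperflorens.

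Both species reached a difference of 2 in 27 of the 98 contigs, P. gabriellae alone in 42 and P. semperflorens alone in 29. Most of the set thus passed the rule with a 4-fold difference in 1 species and a smaller one in the other. Across the 98 contigs the differences of the species correlated at Pearson's r = -0.56, and across all 60899 contigs at 0.19. The negative value follows the choice of the contigs, since a threshold on the mean lets a small difference pass only beside a large one, and contigs of the same libraries are not independent.

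**Figure D3:**
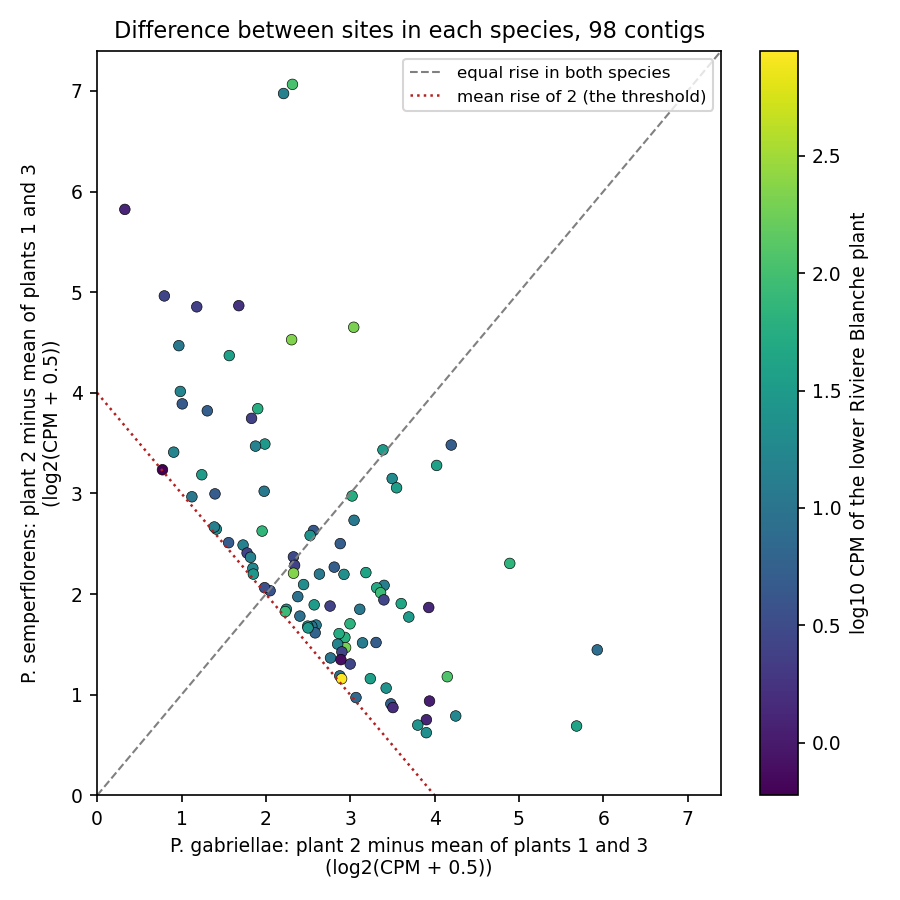
Difference between the sites in each species for the 98 contigs, P. gabriellae on the x axis and P. semperflorens on the y axis, as plant 2 minus the mean of plants 1 and 3 in log2(CPM + 0.5), coloured by the level of the lower Riviere Blanche plant. No point can lie below the dotted line, where the mean difference is 2. On the x axis the points reach from Pgab_v2_contig_26398 at 0.33 and 5.82 to Pgab_v2_contig_46909 at 5.93 and 1.45, both above that line.

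Taken for each species alone, plant 2 stood above both Monts Koghi plants by a mean difference of at least 2 in 620 contigs in P. gabriellae (1.02% of all) and in 457 in P. semperflorens (0.750%). These comparisons share no library. They had 30 contigs in common, 4.84% of the P. gabriellae list and 6.56% of the P. semperflorens list, and 27 of the 30 are among the 98. The share of the P. semperflorens list that was also raised in P. gabriellae, 6.56%, stands against 1.02% of all contigs raised in P. gabriellae. These shares are not over like contigs. A contig scarce in every plant cannot reach a difference of 2 in L, and the 1.02% counts such contigs too. The share among contigs of like abundance was not taken. Most contigs raised to this extent in plant 2 of one species were thus not so raised in the other.

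The difference between the sites was also compared between the species. This uses the same 6 libraries as the rule, whose threshold ties the differences of the species to each other, so its results for the 98 are a description. Each species had 1 plant at Riviere Blanche, and the 2 residual degrees of freedom come from the Monts Koghi plants alone. All 98 passed the filter on low counts and were among 56600 contigs fitted. With edgeR's quasi-likelihood test of the interaction of species and site, 0 of the 98 and 0 of all contigs (0%) passed an adjusted p under 0.05. At an unadjusted p under 0.05 stood 14 of the 98 (14.3%) against 6.95% of all contigs. Limma-voom called 0 of the 98, with 17 of the 98 and 5.76% of all contigs at an unadjusted p under 0.05, and DESeq2 called 8 of the 98 and 1.48% of all contigs.

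Of the 8 called by DESeq2, 7 had the larger difference in P. semperflorens, as had 584 of the 840 called over all contigs. The smallest edgeR p belonged to Pgab_v2_contig_26398, at 1.26 and 28.3 CPM in plant 2 of P. gabriellae and of P. semperflorens, and at Monts Koghi at 0.696 and 1.14 CPM in P. gabriellae plants 1 and 3 and 0 and 0.0186 CPM in P. semperflorens plants 1 and 3. In P. semperflorens 1649 reads at Riviere Blanche stood against 1 at Monts Koghi, a ratio of CPM of 2822 (exact 95% interval 506 to 111518, counting error only), and in P. gabriellae the ratio was 1.48 (1.06 to 2.06). Its adjusted p was 0.338 by edgeR and 2.0e-07 by DESeq2. P. gabriellae plant 2 was 1.07-fold above the highest Monts Koghi plant, so this contig met the rule narrowly.

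Pgab_v2_contig_20710 had a similar shape, with 16.3 and 11.0 CPM in plant 2 of P. gabriellae and of P. semperflorens, 6.57 and 9.93 CPM in P. gabriellae plants 1 and 3, and 0 and 0.0373 CPM in P. semperflorens plants 1 and 3. The ratio of CPM between the sites was 547 (151 to 4524) in P. semperflorens and 2.11 (1.91 to 2.33) in P. gabriellae, with an adjusted interaction p of 0.392 by edgeR and 4.3e-06 by DESeq2. P. semperflorens at Monts Koghi was thus nearly without this contig, while its Riviere Blanche plant was near the level of P. gabriellae. In the opposite direction, the pooled CPM of Pgab_v2_contig_46909 was 170 times as high at Riviere Blanche in P. gabriellae (111 to 275) and 2.80 times as high in P. semperflorens (2.41 to 3.24), with an adjusted p of 0.529 by edgeR and 0.00085 by DESeq2.

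The levels of the 2 species were then compared, allowing for site. The same 6 libraries chose the contigs, and the rule places plant 2 of each species above the Monts Koghi plants of the other. These results for the 98 are therefore also a description. The quasi-likelihood test of edgeR called 0 of the 98 and 0 of all contigs (0%) at an adjusted p under 0.05, with 14 of the 98 (14.3%) and 13.0% of all contigs at an unadjusted p under 0.05. Limma-voom called 0 of the 98, with 21 of the 98 and 13.8% of all contigs at an unadjusted p under 0.05, and DESeq2 called 6 of the 98 and 5.51% of all contigs. The fitted level was higher in P. gabriellae in 59 of the 98 (60.2%), against 51.6% of all contigs, and the median log2 fold change was 0.32 against 0.03. With collection day as a block P. gabriellae was higher in 52 (53.1%, median 0.19), and by limma-voom also in 52 (median 0.14). By plant pair, P. gabriellae was above P. semperflorens in 51 contigs on October 30, 53 on November 4 and 64 on March 10. The median L of P. gabriellae minus that of P. semperflorens was 0.01, 0.25 and 0.45 on these days. Over all contigs it was -0.03, 0.22 and 0.05. The March 10 pair holds the plants whose high levels chose the contigs.

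In 21 contigs P. gabriellae was the higher species on all 3 days and in 10 it was the lower one, 31.6% together against 34.3% of all contigs. In none of the 98 did the 3 plants of one species lie above all 3 of the other. That count is set by the choice, which places plant 2 of each species above both Monts Koghi plants of the other, and over all contigs it was 18.5%.

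The largest fitted differences in favour of P. gabriellae were in contigs with at most 2 P. semperflorens reads at Monts Koghi. Pgab_v2_contig_20710, described above, had a log2 fold change of 5.61 (SE 2.12) in favour of P. gabriellae, with an adjusted p of 0.358 by edgeR and 0.00011 by DESeq2. It was 3.60 without P. semperflorens plant 1, 8.38 without plant 2 of either species and 2.11 by limma-voom. Pgab_v2_contig_44082 had a log2 fold change of 4.30 (SE 1.14), with an adjusted p of 0.250 by edgeR and 0.00055 by DESeq2. It was 8.39 without P. gabriellae plant 2, 8.44 without P. semperflorens plant 2, which leaves that species no read, and 2.76 by limma-voom. The size of both differences is thus uncertain. Pgab_v2_contig_58464 was at 15.5 and 1.36 CPM in plant 2 of P. gabriellae and of P. semperflorens, and at Monts Koghi at 0.339 and 0.803 CPM in P. gabriellae plants 1 and 3 and 0 and 0.0186 CPM in P. semperflorens plants 1 and 3. It was above P. semperflorens in each pair of plants collected on the same day, with a log2 fold change of 4.23 (SE 0.75), an adjusted p of 0.157 by edgeR and one of 2.1e-05 by DESeq2. Sequence differences from the P. gabriellae reference can lower P. semperflorens counts, and their part in these differences was not tested.

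In the other direction, Pgab_v2_contig_10900 was at 85.2 and 267 CPM in plant 2 of P. gabriellae and of P. semperflorens, and at Monts Koghi at 24 and 13.1 CPM in P. gabriellae plants 1 and 3 and 81.9 and 68.7 CPM in P. semperflorens plants 1 and 3. P. semperflorens was higher on each day, and P. gabriellae plant 2 barely reached above the P. semperflorens plants of Monts Koghi. The log2 fold change was -1.99 (SE 0.38), with an adjusted p of 0.170 by edgeR and 0.00091 by DESeq2. Pgab_v2_contig_37196 was at 2.37 and 56.3 CPM in plant 2 of P. gabriellae and of P. semperflorens and at 0.589 to 1.77 CPM at Monts Koghi. P. semperflorens was above P. gabriellae at both sites, and at Monts Koghi by less. The log2 fold change was -2.20 (SE 0.84, edgeR adjusted p = 0.362), and it was -1.10 without either Riviere Blanche plant. Pgab_v2_contig_46909 had a log2 fold change of -2.07 (SE 1.63, edgeR adjusted p = 0.629), and its sign turned to 1.54 when site was left out of the model. It was -3.77 without P. gabriellae plant 2, -3.76 without P. semperflorens plant 2, -0.45 without P. gabriellae plant 3 and -0.01 by limma-voom.

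At Riviere Blanche itself the plants of the species were within 2-fold of each other, in CPM + 0.5, in 55 of the 98 contigs (56.1%) and more than 4-fold apart in 19 (19.4%). Over all contigs these shares were 84.0% and 3.92%. Of the 19, P. gabriellae plant 2 was the higher in 12 and P. semperflorens plant 2 in 7. A scarce contig differs little on this scale, and the median over all contigs was near 1 CPM.

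The days at Monts Koghi were compared with 1 plant of each species per day. The rule did not use the difference between the days, but it used the levels of the same 4 plants. It helps contigs with a very low plant among them to pass, so the results for the 98 are a description. EdgeR called 0 of the 98 and 0 of all contigs (0%) between November 4 and October 30, with 11 of the 98 (11.2%) and 3.73% of all contigs at an unadjusted p under 0.05. Limma-voom called 0 of the 98, with 9 of the 98 and 4.14% of all contigs at an unadjusted p under 0.05. DESeq2 called 7 of the 98 and 0.825% of all contigs. Of the 7, 6 were higher on November 4, whereas 44 of the 467 called over all contigs were. In edgeR's fit 54 of the 98 were higher on November 4 (55.1%, against 49.2% of all contigs). Both species were higher on November 4 in 25 contigs and lower in 16, together 41.8% against 44.4% of all contigs. The differences of the species correlated across the 98 contigs at Pearson's r = -0.07 and across all contigs at 0.03.

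**Figure D4:**
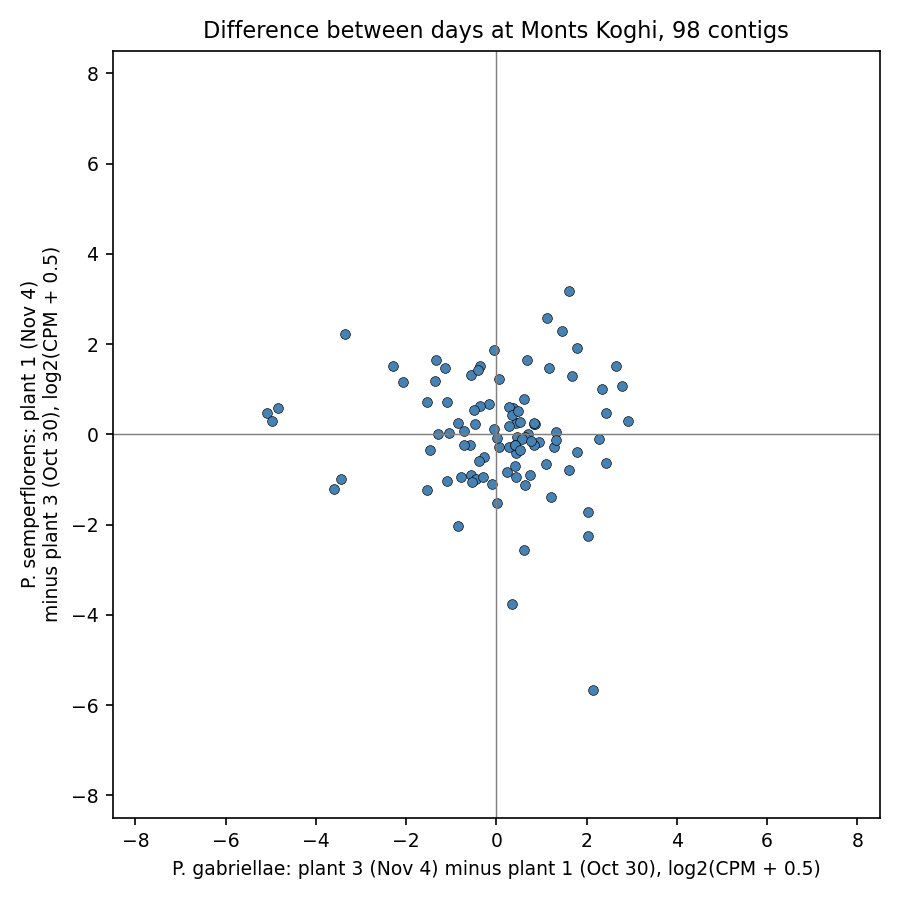
Difference between November 4 and October 30 at Monts Koghi for the 98 contigs, P. gabriellae on the x axis and P. semperflorens on the y axis, in log2(CPM + 0.5). The points surround the centre, with 25 contigs higher on November 4 in both species and 16 lower in both; the point at the bottom is Pgab_v2_contig_11098, nearly absent from P. semperflorens plant 1.

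The 3 contigs with the largest fitted difference between the days were all lower on November 4. The 6 that DESeq2 called higher on that day go the other way. Among those 6, Pgab_v2_contig_43916, described above, had a log2 fold change of 2.98 (SE 0.65, edgeR adjusted p = 0.99995, DESeq2 adjusted p = 0.0046). Of the 3 lower ones, Pgab_v2_contig_43058 was at 0.589 and 2.18 CPM in the October 30 plants of P. gabriellae and of P. semperflorens and at 0.1 and 0.152 CPM in the November 4 plants. Both plants of the later day were lower, with a log2 fold change of -3.24 (SE 0.63, edgeR adjusted p = 0.99995, DESeq2 adjusted p = 0.0060), and its Riviere Blanche plants were at 4.29 and 7.70 CPM. Pgab_v2_contig_25537 had 34 reads in the October 30 libraries and 4 in those of November 4, a ratio of CPM of 5.88 (exact 95% interval 2.10 to 22.8, counting error only), and its edgeR adjusted p was 0.99995. Of the 34, 30 were in P. gabriellae plant 1, P. semperflorens held 4 on each day, and without P. gabriellae plant 1 the log2 fold change turned from -3.33 to 0.30. Pgab_v2_contig_47907 had 41 reads on October 30, all in P. gabriellae plant 1, and 0 on November 4, which against a bound of 3 reads over those 2 libraries made its CPM at least 9.45-fold higher on October 30. The latter contig held 5.32 and 0.773 CPM in plant 2 of P. gabriellae and of P. semperflorens and no read in P. semperflorens at Monts Koghi.

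The threshold cut a continuous range of differences. Just inside it, Pgab_v2_contig_13985 had a difference of 2.01 and Pgab_v2_contig_23953 one of 2.02. Just outside were Pgab_v2_contig_29145 with 1.99 and Pgab_v2_contig_52289 with 1.98. A further 58 contigs had a difference of at least 2 but were left out because a Monts Koghi plant reached the lower Riviere Blanche plant. Of these, Pgab_v2_contig_10282 had the largest difference, 4.80, with 419 CPM in P. semperflorens plant 2, 9.59 CPM in P. gabriellae plant 2 and 51.4 CPM in P. gabriellae plant 1. Pgab_v2_contig_58455, with a difference of 4.37, was at 282 CPM in P. gabriellae plant 2 and at 0.305 CPM or less in each other plant. Both were high in a single Riviere Blanche plant.

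The identifiers of the 98 contigs were spread over the table. Contig numbers fell with abundance, with Pearson's r = -0.75 between number and mean L over all 60899 contigs, which share the same libraries. Of the 98, 19 had numbers up to 10000, 17 from there to 20000, 18 to 30000, 20 to 40000, 16 to 50000 and 8 to 60000. In 3 cases the set held contigs with consecutive numbers, named after their values were seen: Pgab_v2_contig_11097 with Pgab_v2_contig_11098, Pgab_v2_contig_17819 with Pgab_v2_contig_17820 and Pgab_v2_contig_46909 with Pgab_v2_contig_46910. Pgab_v2_contig_17819 and Pgab_v2_contig_17820 had like profiles, with differences of 3.11 and 2.50 in P. gabriellae and 1.85 and 1.66 in P. semperflorens. The other consecutive contigs had unlike profiles: P. semperflorens plant 1 was at 665 CPM in Pgab_v2_contig_11097 and at 0.0435 CPM in Pgab_v2_contig_11098, and the difference within P. gabriellae was 5.93 in Pgab_v2_contig_46909 and 1.98 in Pgab_v2_contig_46910.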

How the data were processed

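Leaf polyA RNA of 6 wild plants, 3 per species, was sequenced from strand-keeping libraries, per the labels' protocols. The deposited files hold unnormalized counts of reads on contigs of a de novo P. gabriellae transcriptome, which the authors assembled from 1 plant, per the series' design text. Aligner, counter and filters: not given in the sources used here. Library totals were 29905486 to 62064930 reads. Members were found on log2(CPM + 0.5) from unscaled totals, and the members, lists and named contigs were chosen with earlier results of these data known. Named were the 6 members with the largest site difference, the 6 with the most reads at Riviere Blanche, the 3 highest and 3 lowest by species fold change, the 3 largest by interaction and the 3 largest by day, and contigs at the border of the rule; others are said to be chosen after their values were seen.

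Counts were fitted in R 4.3.3 with edgeR 4.0.16 (filterByExpr by site, TMM, quasi-likelihood test, Benjamini-Hochberg adjustment over all 56600 contigs, threshold 0.05). DESeq2 1.42.0 and limma-voom (limma 3.58.1) were alternatives. The tests were run on simulated data, with the spread taken from edgeR's fit of these libraries. Differences were planted only in contigs with many reads, so the simulation does not cover contigs with few reads. The SE of a fold change was derived from the F statistic. No species had replicate plants from the same site and day, so the p-values do not measure the spread between individual plants alone. In the interaction test the spread behind them mixes individual plants with collection days. In the species test that spread also takes in any species difference in the site change. In the day test it mixes individual plants with any species difference in the day change. Collection day pairs the plants, per the labels: after removing each species' mean, L of plants of one day correlated across contigs at 0.17 (October 30), -0.06 (November 4) and 0.19 (March 10). Plants of different days correlated at -0.24 to 0.08, a range that holds the November 4 value. The March 10 plants are those of Riviere Blanche, so their value is also the correlation of the site differences of the species. No libraries were duplicates: chi-square over degrees of freedom was at least 113 for each pair. Exact intervals and bounds of 3 reads cover counting error only.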

Additional observations from a re-analysis of the deposited data

Results flagged for a closer look

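In 25 named contigs the 4 Monts Koghi plants were searched for a plant far from the other 3, by the gap to its nearest neighbour as a share of the whole range of L, against Dixon's 95% critical value. There were 4 flags. Chance flags about 1 in 20 groups that were not chosen by their values. These contigs were named from values of the same plants, so the 4 flags cannot be set against that rate. In Pgab_v2_contig_1208, P. semperflorens plant 1 lay below the others (0.907 of the range), at 1.70 CPM against 29.4 to 38.5 CPM. P. gabriellae plant 1 lay above the others in the remaining 3, which are Pgab_v2_contig_10282 (0.852, not a member), Pgab_v2_contig_13985 (0.832) and Pgab_v2_contig_47907 (1, since the other 3 plants held no read). P. gabriellae plant 1 is also the library with 2 empty contigs in the whole table, and the part of this in the values was not tested.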

How the results depend on the processing

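The number of contigs meeting the rule depended on its settings. It was 98 as described, 210 with a constant of 0.1 and 65 with a constant of 1 added to CPM, 275 at a minimum difference of 1.5 and 15 at a minimum of 3. TMM-scaled library sizes gave 135 and DESeq2 size factors 136, each with 97 of the 98, and 64 of the 98 met the rule under both constants and both scalings. Leaving out 1 library, which changes both the plants to be separated and the means, gave 121 to 603 contigs: 307 without P. gabriellae plant 2, 603 without P. semperflorens plant 2 and 160 without P. gabriellae plant 3. In all, 30 of the 98 met the rule without each of the 6 libraries in turn. The 30 contigs raised in both species taken alone became 79 with a constant of 0.1 and 47 with TMM-scaled sizes, and 41 to 50 with 1 Monts Koghi library left out (50 without P. semperflorens plant 1); these alternatives were chosen after seeing the data. For species, interaction and days, DESeq2 called 6, 8 and 7 of the 98, and the cause was not tested. RLE scaling, other filters, limma-voom, the blocks and the Monts Koghi libraries alone called 0, and leaving out 1 library gave 0 to 0. Replicate number pairs plants of the same day at Riviere Blanche and of different days at Monts Koghi. With it as a block, edgeR called 0 of the 98 for species (13 at an unadjusted p under 0.05). The block for collection day also gave 0 (15 before adjustment). The blocks changed no call. Of the named values, 2 changed sign: the species log2 fold change of Pgab_v2_contig_46909 was 1.54 with species as the sole term (-2.07 with site), and the day value of Pgab_v2_contig_25537 was 0.30 without P. gabriellae plant 1 and -6.92 without P. semperflorens plant 1 (-3.33 with all). In the shallowest library, 10 reads are 0.334 CPM.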
